A study of Mus musculus with 9 samples.

Results

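Genes that mark monocytes were followed in cultures of mouse bone-marrow-derived macrophages. The 8 genes are Ly6c2, Plac8, Ccr2, Cx3cr1, Hp, Fn1, F13a1 and Cd34. They were chosen by gene symbol, with their levels by group and by array number already known, and each is read by 1 probe set. All 8 were found among the 19505 genes named on the array. Marrow of wild-type C57BL/6 mice was differentiated over 7 days with macrophage colony-stimulating factor (M-CSF) and 10% serum. Every culture was then exposed to 20 ng/ml interleukin 4 (IL-4), which drives alternative activation, and was harvested 24 h later. The groups, of 3 arrays each, were LCN2 d0 (recombinant mouse lipocalin 2, LCN2, at 150 ng/ml from the start of culture), LCN2 d7 (LCN2 given only from day 7, together with IL-4, its dose not stated) and vehicle (no LCN2). M-CSF is given as 10 ng/ml in one description and as 20 ng/ml in another. No group analysed here went without IL-4. Whether replicate arrays stem from different animals or dishes is not recorded, so SDs and p-values measure the spread between these arrays, which may be technical.

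Classical mouse monocytes leave the marrow carrying Ly6C on their surface and the chemokine receptor CCR2, and they lose both as they mature into macrophages or into patrolling monocytes, which carry more of the fractalkine receptor CX3CR1. Grown with M-CSF, marrow progenitors pass through a monocyte stage before they become macrophages. In a bulk sample, fewer cells of such a type and less RNA per cell cannot be told apart.

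Of the members, Ly6c2 encodes the Ly6C antigen, Plac8 a small cysteine-rich protein of immature myeloid cells, and Ccr2 and Cx3cr1 the chemokine receptors. Fn1 encodes fibronectin, an adhesive matrix protein, F13a1 the catalytic subunit of the clotting transglutaminase factor XIII, Hp the haemoglobin-binding protein haptoglobin, and Cd34 a sialomucin best known from blood progenitors and endothelium. In the GRCm38.p6 annotation Ly6c2 lies on chromosome 15 at 75108161 to 75112066, with its near copy Ly6c1 beside it at 75044018 to 75048920. Ccr2 (124101918 to 124109140) and Cx3cr1 (120048683 to 120068296) lie on chromosome 9, Fn1 (71585473 to 71653280) and Cd34 (194938821 to 194961292) on chromosome 1, Plac8 on chromosome 5 (100551589 to 100572253), Hp on chromosome 8 (109575128 to 109579172) and F13a1 on chromosome 13 (36867178 to 37050244).

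Start regions were available for 6 of the 8 genes, each running from 250 bases before to 50 bases after an annotated start (RefSeq, GRCm38.p6). On both strands 5 short motifs of myeloid factors were searched, namely GAGGAA (PU.1), TTNNGCAA (C/EBP), GGGNGTGG (KLF), TGTGGT (RUNX) and the paired-GAAA element of IRF factors. The regions below are those of the genes whose levels differed most with LCN2, Ly6c2 and Plac8, with F13a1 and with the Ly6c2 copy Ly6c1. They are written 5′ to 3′ on the gene's strand, and capitals mark every match.
Ly6c2 (chr15:75111922-75112221, minus strand): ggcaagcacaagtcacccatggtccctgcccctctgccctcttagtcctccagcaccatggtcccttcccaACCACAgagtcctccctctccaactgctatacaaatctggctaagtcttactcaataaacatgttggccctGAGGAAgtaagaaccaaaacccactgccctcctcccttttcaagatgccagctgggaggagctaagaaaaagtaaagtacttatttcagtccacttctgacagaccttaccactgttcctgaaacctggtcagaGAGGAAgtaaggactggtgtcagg
Ly6c1 (chr15:75048788-75049087, minus strand): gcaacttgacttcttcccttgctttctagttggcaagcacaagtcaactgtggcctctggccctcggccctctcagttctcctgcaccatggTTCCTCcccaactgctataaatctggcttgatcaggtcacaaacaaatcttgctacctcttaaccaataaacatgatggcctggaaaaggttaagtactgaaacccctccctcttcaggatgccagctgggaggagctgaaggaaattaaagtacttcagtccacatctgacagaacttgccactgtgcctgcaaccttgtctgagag
Plac8 (chr5:100572156-100572455, minus strand): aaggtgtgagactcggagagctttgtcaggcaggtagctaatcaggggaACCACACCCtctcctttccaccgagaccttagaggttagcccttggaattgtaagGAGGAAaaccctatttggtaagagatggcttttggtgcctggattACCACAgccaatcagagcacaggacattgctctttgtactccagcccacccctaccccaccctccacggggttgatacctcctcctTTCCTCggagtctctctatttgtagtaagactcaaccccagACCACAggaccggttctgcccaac
F13a1 (chr13:37050195-37050494, minus strand): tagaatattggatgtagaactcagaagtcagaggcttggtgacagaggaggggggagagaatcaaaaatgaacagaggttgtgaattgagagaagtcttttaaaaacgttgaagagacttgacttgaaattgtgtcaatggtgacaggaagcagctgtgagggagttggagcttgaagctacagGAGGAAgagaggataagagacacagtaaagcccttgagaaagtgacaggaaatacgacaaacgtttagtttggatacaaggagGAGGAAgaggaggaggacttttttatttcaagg
In these first-listed regions GAGGAA was found at 2 places each for Ly6c2, Plac8 and F13a1 and at 1 place for Ly6c1. The counts depend on the start taken. At the second listed start GAGGAA had 2 matches for Ly6c2, 2 for Ly6c1, 1 for F13a1 and 0 for Plac8. There Plac8 held 1 match to TTNNGCAA and F13a1 held 1 to GGGNGTGG. GAGGAA occurs in 28.3% of the first-listed start regions of all 27025 genes, so a match is common and describes the letters only. Ly6c2 also held 1 match to TGTGGT, which 16.9% of regions hold, and Plac8 held 3, the first of them overlapping its 1 match to GGGNGTGG (17.6% of regions). The printed regions of Ly6c2 and Ly6c1 aligned end to end with 208 identical bases over 334 columns (62.3%), of which 68 were gaps. This was the highest identity among the pairings of their listed regions. The lowest was 38.2%, with 238 gaps in 419 columns. Gaps count as differences here, and the windows are shifted against each other. The values therefore do not measure how far the 2 copies differ.

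Ccr2 and Cd34, which differed most by array number, are shown next.
Ccr2 (chr9:124101933-124102232, plus strand): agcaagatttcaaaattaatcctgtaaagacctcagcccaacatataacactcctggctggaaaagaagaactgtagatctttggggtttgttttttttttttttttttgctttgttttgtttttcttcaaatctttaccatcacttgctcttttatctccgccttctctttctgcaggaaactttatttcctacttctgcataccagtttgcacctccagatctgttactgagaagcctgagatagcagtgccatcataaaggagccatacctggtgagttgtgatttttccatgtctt
Cd34 (chr1:194938571-194938870, plus strand): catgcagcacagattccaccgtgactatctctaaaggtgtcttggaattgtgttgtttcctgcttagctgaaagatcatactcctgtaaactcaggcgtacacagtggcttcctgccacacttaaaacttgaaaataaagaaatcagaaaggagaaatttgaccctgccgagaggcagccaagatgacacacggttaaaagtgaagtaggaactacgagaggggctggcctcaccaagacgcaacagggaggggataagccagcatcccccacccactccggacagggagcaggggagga
None of the 5 motifs occurred in either window. The window of Ccr2 lies inside the annotated span of the gene, which begins at 124101918, so bases upstream of that were not searched. TTNNGCAA (10.8% of regions) and the IRF element (3.49%) were absent from the first-listed region of all 6 members. The region of Cx3cr1 held 1 match to TGTGGT.

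The deposited values are log2 expression levels, on which a difference of 1 is a doubling. Titles carry a replicate number, 1, 2 or 3, and the 3 arrays numbered 1 stood apart. The leading principal component held 62.5% of the variance and separated them from the other 6, while limma called 0 genes between numbers 2 and 3 (310 at an unadjusted p under 0.05). The numbers are balanced over the groups, each having 1 array of every number. Differences of the members between groups are therefore also given without the arrays numbered 1, and for those discussed most within each number. That equal title numbers pair arrays is an assumption. As to cell identity, the macrophage genes Adgre1 (F4/80), Csf1r (the M-CSF receptor) and Itgam (CD11b) read 11.57 or more on every array, and Cd68 was not analysed here. Of the 8 monocyte genes, Cx3cr1 and Hp lay on all 9 arrays below 5.66, the median level of all probe sets, under which genes were not tested. The other 6 were among the 10042 genes tested.

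Ly6c2 read 6.81, 8.49 and 8.15 on the LCN2 d0 arrays numbered 1, 2 and 3, 7.09, 7.96 and 8.30 on the LCN2 d7 arrays, and 5.83, 7.82 and 7.69 on the vehicle arrays. The array numbered 1 was the lowest of its group each time, and within every number both LCN2 arrays lay above the vehicle array. Ly6c1, whose product differs little from Ly6C2 so that its probes may read both, gave 6.20, 8.29 and 8.20 with LCN2 d0, 7.14, 7.90 and 8.24 with LCN2 d7 and 5.96, 7.91 and 7.76 with vehicle. As with Ly6c2 the array numbered 1 was the lowest of each group, but the LCN2 d7 array numbered 2 did not exceed its vehicle partner, and in the pair numbered 1 LCN2 d0 exceeded vehicle by 0.24, against 0.98 for Ly6c2. The signals of the 2 genes cannot be separated with certainty. By group mean the order of Ly6c2 was LCN2 d0, LCN2 d7, vehicle, and that of Ly6c1 was LCN2 d7 (7.76 ± 0.57), LCN2 d0 (7.56 ± 1.18), vehicle (7.21 ± 1.08; SD, n = 3 each).

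Plac8 read 6.17, 7.04 and 6.83 with LCN2 d0, 6.58, 7.26 and 7.28 with LCN2 d7, and 5.82, 6.62 and 6.52 with vehicle. Within each number the order was the same, highest with LCN2 d7, then LCN2 d0, then vehicle. The group ranges overlap, and the array numbered 1 is the lowest in all 3 groups.

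**Figure D1:**
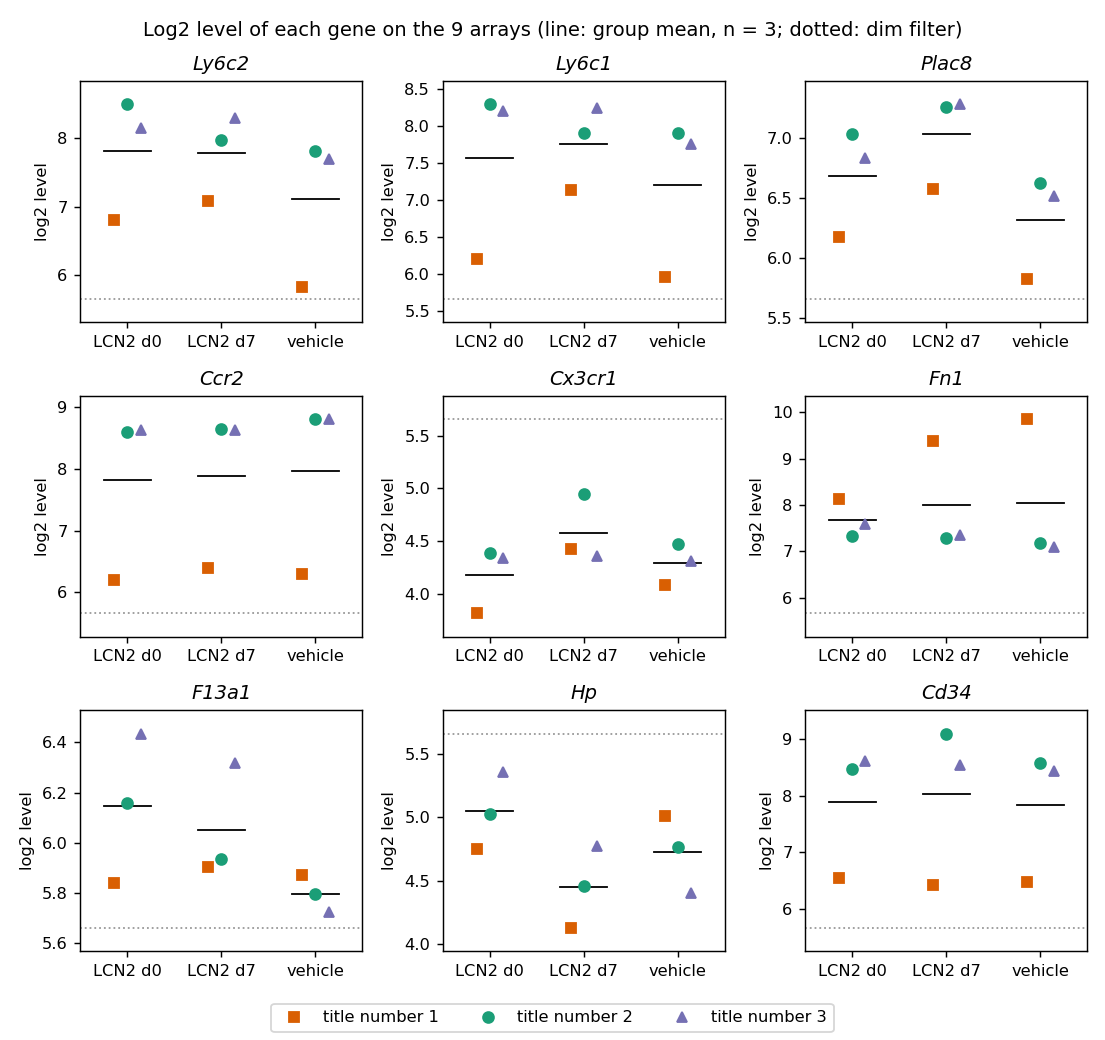
Log2 level (vertical axis, scaled separately for each gene) of the 8 genes and of Ly6c1 on the LCN2 d0, LCN2 d7 and vehicle arrays, with the title number shown by symbol, the group mean as a line (n = 3) and the filter of 5.66 dotted. The arrays numbered 1 are lowest for Ly6c2, Ly6c1, Plac8, Ccr2 and Cd34 in every group and highest for Fn1, and all values of Cx3cr1 and Hp lie under the dotted line.

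Ccr2 read 6.20, 8.60 and 8.63 with LCN2 d0, 6.39, 8.64 and 8.63 with LCN2 d7, and 6.30, 8.80 and 8.81 with vehicle. The 3 arrays numbered 1 and the 6 others form 2 tight sets far apart, and within each set the groups lay close together. Cx3cr1 read 3.81, 4.39 and 4.33 with LCN2 d0, 4.43, 4.95 and 4.35 with LCN2 d7, and 4.08, 4.48 and 4.31 with vehicle. Its highest value was an LCN2 d7 array, but the groups overlap and all values lie below the filter.

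Fn1 read 8.13, 7.34 and 7.59 with LCN2 d0, 9.38, 7.28 and 7.34 with LCN2 d7, and 9.86, 7.17 and 7.10 with vehicle. Its arrays numbered 1 were the 3 highest, and among them the LCN2 d0 array was well below the other two. F13a1 read 5.84, 6.16 and 6.44 with LCN2 d0, 5.90, 5.94 and 6.32 with LCN2 d7, and 5.87, 5.80 and 5.72 with vehicle. All LCN2 d7 arrays lay above all vehicle arrays, and the LCN2 d0 array numbered 1 was the only LCN2 array under the highest vehicle value.

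Hp read 4.75, 5.03 and 5.36 with LCN2 d0, 4.13, 4.46 and 4.77 with LCN2 d7, and 5.01, 4.76 and 4.40 with vehicle. The order of the numbers in the vehicle group was the reverse of that in the LCN2 groups, and the LCN2 d0 array was above its LCN2 d7 partner in each number by 0.62, 0.57 and 0.59. Cd34 read 6.55, 8.47 and 8.62 with LCN2 d0, 6.43, 9.10 and 8.55 with LCN2 d7, and 6.47, 8.58 and 8.44 with vehicle. As with Ccr2, the split was by array number, and the groups overlap throughout.

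The comparison of LCN2 d0 with vehicle asks whether LCN2 throughout differentiation leaves more or less of the monocyte programme. Ly6c2 was higher by 0.70 ± 0.60 (SE, n = 3 per group), the second largest increase of the 10042 genes, with group means of 7.82 ± 0.89 and 7.12 ± 1.11 (SD). Plac8 was higher by 0.36 ± 0.30 and F13a1 by 0.35 ± 0.17, while Ccr2 (-0.16 ± 0.92) and Cd34 (0.05 ± 0.83) were centred close to 0. Fn1 was at -0.36 ± 0.77, but at 0.33 without the arrays numbered 1. Of the dim genes, Hp was at 0.32 ± 0.22 and Cx3cr1 at -0.11 ± 0.21. The median over the 8 genes was 0.19, where all genes tested had -0.015.

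The SEs of Ly6c2, Plac8, Ccr2, Fn1 and Cd34 hold the gap between array numbers. Within numbers 1, 2 and 3 Ly6c2 was higher with LCN2 d0 by 0.98, 0.67 and 0.45, Plac8 by 0.35, 0.41 and 0.32, and Ccr2 was lower each time (-0.10, -0.20 and -0.17). In the fit blocked on number, the SEs were 0.19 for Ly6c2, 0.089 for Plac8 and 0.093 for Ccr2. In the fit without the block limma called 0 of the 6 tested members (0 at an unadjusted p under 0.05), beside 0% of all genes tested (142 at an unadjusted p under 0.05). With the block it called 0 (3 of the 6 at an unadjusted p under 0.05, beside 497 of all genes). Ly6c2 and Plac8 were the 2 tested members above 0 in all 3 same-number pairs, beside 11.8% of all genes, and 0 members lay above the vehicle range on all 3 LCN2 d0 arrays, beside 2.05%. Since the members were chosen with this contrast known, nothing is read from these counts. Ly6c2 was at 0.060 without vehicle replicate 1, 0.37 without LCN2 d0 replicate 2, 1.05 without vehicle replicate 2 and 1.20 without LCN2 d0 replicate 1. Plac8 was at 0.11 without vehicle replicate 1, 0.18 without LCN2 d0 replicate 2 and 0.61 without LCN2 d0 replicate 1, and F13a1 at 0.20 without LCN2 d0 replicate 3. Each such omission leaves the array numbers unbalanced. Without all arrays numbered 1, the values were 0.56 for Ly6c2, 0.36 for Plac8, 0.54 for F13a1, -0.19 for Ccr2, 0.04 for Cd34, 0.61 for Hp and -0.03 for Cx3cr1.

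The comparison of LCN2 d7 with vehicle asks the same of LCN2 given to cells that had already differentiated. Here Plac8 had the largest increase of all 10042 genes, 0.72 ± 0.30 (group means 7.04 ± 0.40 and 6.32 ± 0.44), and Ly6c2 the third largest, 0.67 ± 0.60 (7.78 ± 0.62 and 7.12 ± 1.11). F13a1 was higher by 0.25 ± 0.17 and Cd34 by 0.20 ± 0.83, and Ccr2 (-0.08 ± 0.92) and Fn1 (-0.04 ± 0.77) were near 0. Among the dim genes Cx3cr1 was at 0.29 ± 0.21 and Hp at -0.27 ± 0.22. The median over the 8 genes was 0.23, against 0.003 over all genes tested.

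Plac8 differed by almost the same amount in each number, 0.76, 0.63 and 0.77, whereas Ly6c2 differed by 1.26, 0.15 and 0.60. For Ly6c2 the pair numbered 1 was the widest, and without those arrays the difference was 0.37 for Ly6c2 and 0.70 for Plac8. The block brought the SE of Plac8 to 0.089 and that of Ly6c2 to 0.19. limma called 0 of the 6 tested members without the block (1 at an unadjusted p under 0.05), beside 0% of all genes (70 at an unadjusted p under 0.05), and 0 with it (2 of the 6 at an unadjusted p under 0.05, beside 259 of all genes). Plac8, Ly6c2 and F13a1 were above 0 in all 3 same-number pairs, beside 11.4% of all genes, and F13a1 was the 1 member whose LCN2 d7 arrays all lay above the vehicle arrays, beside 1.49%. These counts too describe genes picked with the contrast known. Ly6c2 was at 0.027 without vehicle replicate 1, 0.41 without LCN2 d7 replicate 3, 1.01 without LCN2 d7 replicate 1 and 1.02 without vehicle replicate 2. Plac8 ran from 0.47 without vehicle replicate 1 to 0.95 without LCN2 d7 replicate 1, and F13a1 was at 0.12 without LCN2 d7 replicate 3. Without all arrays numbered 1, F13a1 was at 0.37, Cd34 at 0.31, Cx3cr1 at 0.26, Fn1 at 0.18, Hp at 0.03 and Ccr2 at -0.17.

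**Figure D2:**
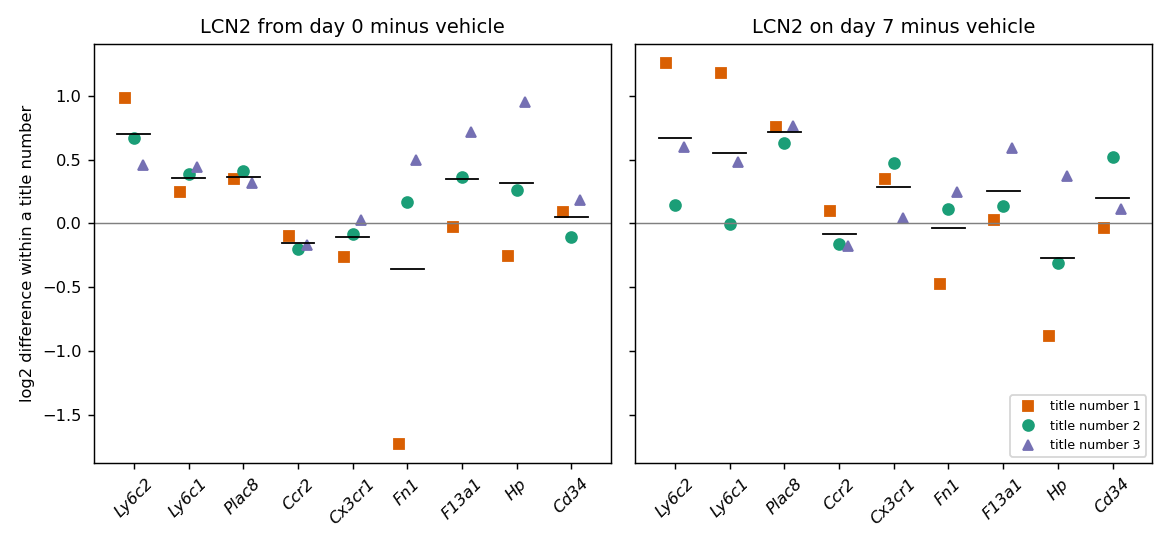
Log2 difference of each LCN2 array from the vehicle array of the same title number (vertical axis) for the 8 genes and Ly6c1, with LCN2 d0 on the left and LCN2 d7 on the right and the difference of the group means as a line. For Plac8 the 3 symbols nearly coincide, at 0.32 to 0.41 with LCN2 d0 and 0.63 to 0.77 with LCN2 d7, and for Fn1 they spread widely, with the pair numbered 1 at -1.73 with LCN2 d0.

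Both comparisons use the same vehicle arrays, so the 2 sets of values are not independent. The 2 LCN2 groups set against each other, LCN2 d0 minus LCN2 d7, differ in time and possibly in dose, which cannot be told apart. Plac8 was lower with LCN2 d0 in each number (-0.40, -0.22 and -0.45), with a mean difference of -0.36 ± 0.30. At dim levels, Cx3cr1 differed by -0.40 ± 0.21 and Hp by 0.59 ± 0.22. Ly6c2 differed by 0.03 ± 0.60. Without the arrays numbered 1 the differences were -0.34 for Plac8, -0.29 for Cx3cr1, 0.58 for Hp and 0.19 for Ly6c2. The median over the 8 genes was -0.11, against -0.017 over all genes tested, but its sign was not stable. It was 0.065 without the arrays numbered 1, 0.130 with array weights, and between -0.393 (without LCN2 d7 replicate 1) and 0.383 (without LCN2 d0 replicate 1) when 1 array was left out. limma called 0 of the 6 tested members (0 at an unadjusted p under 0.05, 1 with the block), beside 0% of all genes (177 at an unadjusted p under 0.05, 539 with the block).

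Other marrow cells carry several of these transcripts, so marker lists are given beside the differences. Of 14 neutrophil genes 10 were tested, Ly6g was not analysed here, and Camp, Retnlg and Cebpe were dim. The mean level of all 13 measured genes, dim ones included, ran from 6.39 to 7.46 with LCN2 d0. It ran from 6.65 to 7.35 with LCN2 d7 and 6.20 to 7.20 with vehicle. With LCN2 d0, 8 of the 10 had values above those with vehicle (median 0.41). Elane was at 0.60, Mpo at 0.60, S100a8 at 0.50 and Mmp9 at -0.66. With LCN2 d7, 7 did (median 0.40), S100a8 at 0.64 and Mpo at 0.46 among them. The mean over the 10 genes differed within numbers 1, 2 and 3 by 0.26, 0.31 and 0.19 with LCN2 d0 and by 0.66, -0.14 and 0.29 with LCN2 d7, so the pair numbered 2 ran the other way with LCN2 d7. Without the arrays numbered 1, S100a8 was at 0.46 with LCN2 d0 and 0.08 with LCN2 d7, Mpo at 0.30 and 0.14, and Elane and Mmp9 with LCN2 d0 at 0.71 and -0.19. limma called 0 in either comparison (0 at an unadjusted p under 0.05). Of 8 tested progenitor genes, 8 were higher with LCN2 d0 (median 0.34) and 6 with LCN2 d7 (median 0.17), among them Prtn3, a granule protease, at 0.41 ± 0.14 and 0.25 ± 0.14. Kit, Flt3, Ctsg, Sox4 and Ms4a3 of the progenitor list were dim, and its Mpo and Elane are in the neutrophil list too. Over 20 cell cycle genes the medians were 0.081 with LCN2 d0 and 0.15 with LCN2 d7. Of the dendritic cell list, Zbtb46, Flt3, Cd209a, Clec9a and Xcr1 were dim. Of the 7 tested dendritic cell genes 5 were lower with LCN2 d0 (median -0.38), H2-Ab1 at -0.67 and H2-Aa at -0.59 among them. With LCN2 d7, 6 were lower (median -0.11). None of these 3 lists had a called gene in limma (0). At an unadjusted p under 0.05 there were 2 progenitor and 2 dendritic genes with LCN2 d0, beside 1.41% of all genes, and 0 in the other cases. With the block there were 3 and 4, beside 4.95% of all genes. Without the arrays numbered 1, Prtn3 was at 0.41 with LCN2 d0 and 0.13 with LCN2 d7, and H2-Ab1 and H2-Aa with LCN2 d0 at -0.63 and -0.54. For all these lists, the part of these cells in the values of Ly6c2 and Plac8 was not tested.

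Of 14 further genes of classical monocytes, 11 were higher with LCN2 d0 than with vehicle (median 0.14) and 9 with LCN2 d7 (median 0.028). limma called 0 in either comparison (0 at an unadjusted p under 0.05). Their largest values with LCN2 d0 were those of Thbs1, a matricellular glycoprotein, at 0.45 ± 1.21, Cd14, a lipopolysaccharide co-receptor, at 0.31 ± 0.51, Ifi27l2a at -0.29 ± 0.35 and Mgst1 at 0.20 ± 0.33. Without the arrays numbered 1 Thbs1 took the other sign, at -0.26, and Cd14 was at 0.21, Ifi27l2a at -0.10 and Mgst1 at 0.17. With LCN2 d7 the widest value was that of S100a6, at 0.11. Of the chemokines that bind CCR2, Ccl12 was at 0.63 ± 0.45 and Ccl7 at 0.23 ± 0.27 with LCN2 d0, and at 1.02 and 0.34 without the arrays numbered 1. Among macrophage genes, 10 of 14 were lower with either LCN2 treatment, with a median of -0.036 with LCN2 d0 and -0.023 with LCN2 d7. Over all genes tested the medians were -0.015 and 0.003. limma called 0 of the 14 in either comparison. At an unadjusted p under 0.05 there was 1 with LCN2 d0, beside 1.41% of all genes, and 0 with LCN2 d7. With the block there were 3 with LCN2 d0, beside 4.95%, and 0 with LCN2 d7. With LCN2 d0 and vehicle, Cd81 averaged 11.77 ± 0.29 and 11.35 ± 0.19, and Apoe 11.53 ± 0.16 and 11.90 ± 0.38 (SD, n = 3 each).

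The arrays numbered 1 differed from those numbered 2 and 3 by more than the groups did for 5 of the members. For Plac8 the margin was within the SEs (-0.73, against 0.72 for LCN2 d7 minus vehicle). Ccr2 averaged 6.30 ± 0.09 on the arrays numbered 1 and 8.69 ± 0.09 on the others (SD, n = 3 and 6), a difference of -2.39 ± 0.08 (SE). Cd34 averaged 6.48 ± 0.06 and 8.63 ± 0.24, a difference of -2.14 ± 0.13. They had the fifth and the eighth largest decrease of all genes tested. The difference was -1.49 ± 0.16 for Ly6c2 and -0.73 ± 0.08 for Plac8. Fn1 went the other way, at 9.12 ± 0.89 on the arrays numbered 1 and 7.30 ± 0.17 on the others, a difference of 1.82 ± 0.29 (3.53-fold). F13a1, at -0.19 ± 0.13, was not called, and Cx3cr1 (-0.36 ± 0.13) and Hp (-0.17 ± 0.18) were not tested.

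With group in the model, limma called 4 of the 6 tested members lower, where 23.6% of all genes were lower, and 1 higher, where 11.9% were. Ccr2, Cd34 and Ly6c2 were lower on every array numbered 1 than on any other array, which held for 23.6% of all genes tested. These counts describe a contrast that was known when the genes were chosen. Over all genes, 3565 were called, 1194 higher and 2371 lower. The share higher was 33.5%, and 47.1% when the arrays were quantile normalized again, and the count was 2122 without vehicle replicate 1 and 2260 without LCN2 d0 replicate 1.

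The gap was even across groups for some members and uneven for others. For Ccr2 it was -2.42 with LCN2 d0, -2.24 with LCN2 d7 and -2.51 with vehicle, and for Plac8 -0.76, -0.69 and -0.75. For Fn1 it was 0.66, 2.07 and 2.72, so that the LCN2 d0 array numbered 1 stood out least. For Ly6c2 it was -1.51, -1.04 and -1.92. With 1 array numbered 1 per group, the differences between groups in this gap were not tested.

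**Figure D3:**
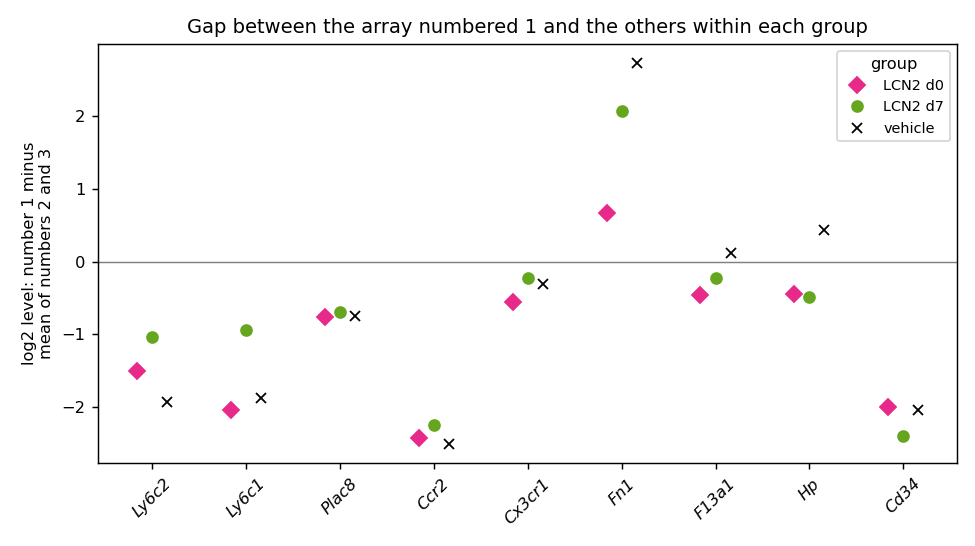
Log2 level on the array numbered 1 minus the mean of the arrays numbered 2 and 3 (vertical axis) within each group, for the 8 genes and Ly6c1. Ccr2, Cd34 and Plac8 show nearly the same gap in LCN2 d0, LCN2 d7 and vehicle, while that of Fn1 runs from 0.66 in LCN2 d0 to 2.72 in vehicle.

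Other monocyte genes did not follow the members in 1 direction. Of the 14 tested genes of classical monocytes, limma called 7 higher and 6 lower on the arrays numbered 1. Of all genes tested, 11.9% were called higher and 23.6% lower. The median of the 14 genes was 0.32, against -0.064 over all genes. Thbs1 rose by 2.99 ± 0.35, Chil3, a chitinase-like protein that IL-4 also induces, by 1.51 ± 0.09, and Cd14 by 1.30 ± 0.09. Ms4a4c, a membrane protein gene of Ly6C-high monocytes, fell by 1.38 ± 0.14.

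Of 10 lineage transcription factors limma called 5 higher and 2 lower, beside 11.9% and 23.6% of all genes. By sign 8 were higher and 2 lower, with a median of 0.33, against -0.064 over all genes. Gata2 rose by 0.98 ± 0.11, Nr4a1, which patrolling monocytes need, by 0.97 ± 0.19 and Cebpb by 0.79 ± 0.12, while Maf, a factor of mature macrophages, fell by 0.95 ± 0.14. Klf4, which monocyte formation needs, fell by 0.63 ± 0.11, and it was chosen for mention after its value was seen. Among the partners of the members, the fibronectin-binding integrin genes moved apart. Itgb3 rose by 1.16 ± 0.10, and Itga4 fell by 0.66 ± 0.09. Tgm2, a tissue transglutaminase related to factor XIII, rose by 1.30 ± 0.10, and the CCR2 ligand gene Ccl7 fell by 0.57 ± 0.14. Of the other CCR2 ligand genes listed, Ccl12 was higher on the arrays numbered 1 (mean 9.22, against 8.68). Ccl2 was lower there (11.57, against 11.99). In all, limma called 3 of 11 partner genes higher and 3 lower, beside 11.9% and 23.6% of all genes. By sign 6 were higher and 5 lower.

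Of 14 macrophage genes limma called 5 higher and 2 lower (8 and 6 by sign), beside 11.9% and 23.6% of all genes. Their median was 0.069, against -0.064 over all genes. Fcgr1, the high-affinity IgG receptor, fell by 0.98 ± 0.07, and Mertk, a receptor for dying cells, rose by 0.77 ± 0.13.

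**Figure D4:**
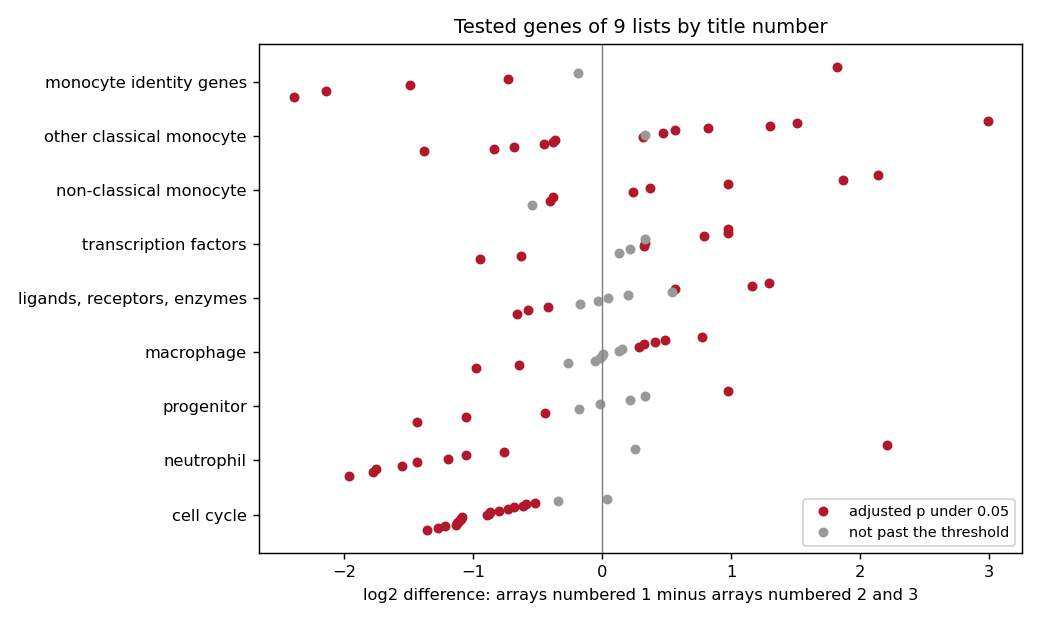
Log2 difference between the arrays numbered 1 and those numbered 2 and 3 (horizontal axis) for every tested gene of 9 lists, in red where limma's adjusted p was under 0.05. Cell cycle and neutrophil genes lie mostly to the left of 0, Mmp9 at 2.21 being the widest exception, as do 5 of the 6 tested monocyte identity genes, Fn1 lying to the right.

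Markers of other cells moved with the array number too. The counts are of genes called by limma, beside 11.9% of all genes higher and 23.6% lower. Of the 10 tested neutrophil genes 8 fell and 1 rose (median -1.32), with Ngp, a granule protein, down by 1.97 ± 0.16 and Lcn2, the gene of the protein under study, down by 1.78 ± 0.16, while Mmp9, a protease, rose by 2.21 ± 0.26. The mean level of all 13 measured neutrophil genes, dim ones included, was 6.20 to 6.65 on the arrays numbered 1 and 7.07 to 7.46 on the others. Of 20 cell cycle genes 18 fell (median -0.89), led by Bub1 (by 1.36 ± 0.19) and Ccna2 (by 1.27 ± 0.15). Of 8 progenitor genes 3 fell, among them Mpo by 1.44 ± 0.22 and Elane by 1.05 ± 0.18, and 1 rose. Mpo and Elane are also in the neutrophil list, so the counts of the lists overlap. Fibronectin and CD34 are also made by stromal and endothelial cells. Of 9 measured stromal markers 7 were dim, Col3a1, Dcn and Lum among them, and of 8 endothelial markers 5 were, Cdh5, Emcn and Tek among them. Col1a1 (mean level 6.93) and Pecam1 (7.15) were above the filter and were not called, at -0.06 ± 0.16 and 0.07 ± 0.16, and Cxcl12 (by 0.65 ± 0.14), Esam (by 0.65 ± 0.12) and Eng (by 0.42 ± 0.09), the called genes of these lists, rose. The part of other cell types in the levels of the members was not tested.

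Genes with the most similar profile over the 9 arrays were sought for each member among the genes tested, as a description. For members with a wide gap by array number, such as Ccr2, that gap largely sets the r. For Ccr2, 353 genes reached a Pearson r over 0.95, and the nearest were Glipr2 (r = 0.997), Fnip1 (r = 0.994) and Gm5150 (r = 0.993). Over the 6 arrays numbered 2 and 3 alone, these r were 0.50, 0.25 and -0.23. For Cd34 178 genes did, led by Got2, Emp2 and Dock8 (r = 0.991 to 0.988), with r of 0.70 to 0.76 over the 6 arrays.

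Ly6c2 had 57 such neighbours and Plac8 had 5. Nup205, Oser1 and Aaas followed Ly6c2 (r = 0.985 to 0.978, and 0.78 to 0.90 over the 6 arrays). Cklf, Adck1 and Ppie followed Plac8 (r = 0.965 to 0.954, and 0.86 to 0.92). Tmem176b, Sc5d and Ikbke were nearest to Fn1 (r = 0.978 to 0.960), with r over the 6 arrays of 0.020 for Tmem176b, 0.69 for Sc5d and 0.70 for Ikbke. The nearest to F13a1 were Ctu1, Nrg4 and Acta2 (r = 0.910 to 0.897, and 0.940 to 0.996 over the 6 arrays). Those nearest to Cx3cr1 were Trnt1, Acaca and E4f1 (r = 0.95 to 0.93, and 0.883 to 0.935). Slc6a9, Wdr86 and Lrrc8c were nearest to Hp (r = 0.913 to 0.870, and 0.895 to 0.965).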

How the data were processed

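RNA of 9 cultures was amplified, labelled with biotin and measured on 1 expression array each. The authors' deposited table holds log2 levels for 22203 probe sets; per the submitters' processing notes they were made with the R package oligo and RMA, which corrects background, makes the arrays' distributions alike and summarises probes. Versions are not given in the sources used here. The array medians ran from 5.60 to 5.69. Values were used as deposited, with the platform annotation's symbols (19572 probe sets with 1 symbol, 2631 with none) and, for 55 genes, the brightest probe set. There are no read counts behind array signals; precision depends on the 3 arrays per group.

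Genes with a mean under 5.66 were left out of tests, which left 10042. Limma 3.58.1 (R 4.3.3) was fitted to all 9 arrays with 1 mean per group, and for the array number with group as a covariate. Genes were called at an adjusted p under 0.05 (Benjamini-Hochberg, all 10042 genes). SEs are those of this fit, and for the 2 dim members those of a fit to all genes. The fit was tested on simulated data.

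The members and gene lists were chosen with earlier results of these data known, so the members carry no test of their own. Named genes are the members, Ly6c1, the 3 nearest genes of each member by Pearson r, and up to 4 tested genes per list with the largest difference. Klf4 was added, as were Ccl2 and Ccl12 by array number. Equal title numbers were taken to pair arrays. Deviations from the group means correlated at 0.16 to 0.82 in all 9 same-number pairs, and at 0.74 to 0.82 among the arrays numbered 1. Same-number pairs of numbers 2 and 3 correlated at 0.16 to 0.65, and crossed pairs of these numbers at 0.20 to 0.69. These values therefore do not show that equal numbers 2 or 3 belong together. Alternatives covered the filter, variance trend, normalization, probe-set rule, array weights, pairing and omitted arrays.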

Additional observations from a re-analysis of the deposited data

How the results depend on the processing

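The fit with the replicate block (title number) called 0 genes in each of the 3 comparisons of groups, as did every other alternative, so pairing changed no call. The median over the 8 members ran, with 1 array left out at a time, from 0.105 to 0.515 for LCN2 d7 minus vehicle, from -0.012 to 0.556 for LCN2 d0 minus vehicle and from -0.393 to 0.383 for LCN2 d0 minus LCN2 d7. The last was also 0.130 with array weights and 0.065 without the arrays numbered 1. Omitting 1 array unbalances the array numbers by construction; the cause of the shift with array weights, whose estimation stopped short of convergence, was not tested. The filters, variance trend, probe-set rule and block cannot change a member's difference of group means. Nor can omitting an array of the group left out of a comparison. Counts over the alternatives are therefore no measure of stability. Over 18 alternatives Ly6c2, Plac8 and F13a1 stayed above 0 in both comparisons with vehicle, Ly6c2 reaching 0.027 (LCN2 d7) and 0.060 (LCN2 d0). Ccr2 took the other sign in 3 alternatives in each, Cd34 in 4 in each, Fn1 in 5 with LCN2 d7 and 3 with LCN2 d0, and Hp (LCN2 d7) and Cx3cr1 (LCN2 d0) in 1. By array number, the count of genes called ran from 2122 to 3999 with 1 array left out, and the 5 called members were called under all 17 alternatives except the stricter filter, which leaves out Plac8 (4 called). Signal near the filter limits Cx3cr1, Hp and F13a1.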

Other observations

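Genes of patrolling, non-classical monocytes gave a mixed picture by array number. Of 8 tested genes, limma called 5 higher and 2 lower on the arrays numbered 1, beside 11.9% and 23.6% of all genes. Fcgr4, an IgG receptor of these cells that macrophages also carry, rose by 2.14 ± 0.28, and Fabp4, a fatty acid carrier, by 1.87 ± 0.18. Treml4, Ace, Adgre4 and Cd300e, which are closer to this cell type, were dim on average. Between LCN2 d7 and vehicle, Spn (CD43) differed by 0.38 ± 0.19, and by 0.41, 0.60 and 0.14 within numbers 1, 2 and 3, and limma called 0 of the 8 genes (0 at an unadjusted p under 0.05, 1 with the replicate block, beside 2.58% of all genes with the block). Without the arrays numbered 1, the value of Spn was 0.37.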
